A study of Mus musculus with 9 samples.

Results

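The transcripts described here are 4 galectins (Lgals1, Lgals3, Lgals8 and Lgals9), the galectin-3-binding protein Lgals3bp, and Havcr2, which encodes TIM-3. They were taken by gene symbol from the transcript tables of every library, and all 6 were found among 22376 gene symbols. The cells were macrophages grown for 1 week with 10 ng/ml recombinant M-CSF from bone marrow of wild-type C57Bl/6 mice, washed free of M-CSF, and plated at 50000 cells for 48 h. Of the 9 libraries, 3 came from cells cultured with a PD-L1 antibody (BioXcell BE0101; PD-L1 antibody 1 to 3), 3 from cells with an isotype-matched antibody of irrelevant target (BioXcell BE0090; isotype antibody 4 to 6), each at 100 µg/ml, and 3 from cells without antibody (untreated 7 to 9). PD-L1 is a surface protein that engages PD-1 on T cells and restrains them. Whether the samples of a group came from separate mice or cultures is not given in the sources used here, so p-values measure only how far these samples differ, and that spread may be technical. These are bulk samples, in which fewer cells of a type and less RNA per cell cannot be told apart.

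Galectins are lectins that bind beta-galactoside sugars on glycoproteins. Galectin-1 is a small prototype lectin, galectin-3 joins its lectin domain to a flexible tail and is an abundant macrophage protein long known as the Mac-2 antigen, and galectin-8 and galectin-9 carry a pair of lectin domains joined by a linker peptide. In macrophages they act outside the cell, on surface glycoproteins, and inside it, where galectin-3 and galectin-8 gather on damaged endosomes and lysosomes. Galectin-9 has been described as a ligand of TIM-3, an inhibitory receptor best known on exhausted T cells and also made by dendritic cells and macrophages. Lgals3bp is a secreted, heavily glycosylated protein that binds galectin-3.

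By the deposited files, whose positions fit GRCm38, the transcripts lie as follows. Lgals1 is on chromosome 15 (78926725 to 78930465, plus strand), Lgals3 on chromosome 14 (47373860 to 47386167, plus strand) and Lgals8 on chromosome 13 (12439415 to 12461738, minus strand). The other 3 are on chromosome 11, with Lgals9 at 78962979 to 78984924 (minus strand), Lgals3bp at 118392752 to 118401931 (minus strand) and Havcr2 at 46454931 to 46481254 (plus strand). No other gene of GENCODE M21 overlapped any of them except Lgals8, whose 3′ end is overlapped from the plus strand by Heatr1, and strand-specific counting is not given in the sources used here. Promoter windows from RefSeq (GRCm38.p6, 250 bases before to 50 after the start) were found for 5 of the 6 members, all but Lgals1. The windows of Lgals9 and Lgals3bp, which rose, and of Lgals3, which fell, are shown, on the minus strand of chromosome 11 at chr11:78984875-78985174 and chr11:118401910-118402209 and on the plus strand at chr14:47373610-47373909. Capitals mark matches to the core of the interferon-stimulated response element (GAAA, any 2 bases, GAAA), the STAT-binding GAS element (TTCNNNGAA) or the kappaB consensus, searched on both strands.
Lgals9: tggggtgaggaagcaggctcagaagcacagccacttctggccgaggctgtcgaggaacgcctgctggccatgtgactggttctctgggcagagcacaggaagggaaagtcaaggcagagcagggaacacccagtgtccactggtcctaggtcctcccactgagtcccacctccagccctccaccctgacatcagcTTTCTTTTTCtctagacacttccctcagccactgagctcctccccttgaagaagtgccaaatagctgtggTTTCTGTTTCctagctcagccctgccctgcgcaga
Lgals3bp: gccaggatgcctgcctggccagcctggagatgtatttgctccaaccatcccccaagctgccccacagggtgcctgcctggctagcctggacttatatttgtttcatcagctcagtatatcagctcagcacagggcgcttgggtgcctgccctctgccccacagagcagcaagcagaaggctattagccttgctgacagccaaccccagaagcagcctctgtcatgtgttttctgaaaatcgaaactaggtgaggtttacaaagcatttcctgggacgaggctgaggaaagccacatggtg
Lgals3: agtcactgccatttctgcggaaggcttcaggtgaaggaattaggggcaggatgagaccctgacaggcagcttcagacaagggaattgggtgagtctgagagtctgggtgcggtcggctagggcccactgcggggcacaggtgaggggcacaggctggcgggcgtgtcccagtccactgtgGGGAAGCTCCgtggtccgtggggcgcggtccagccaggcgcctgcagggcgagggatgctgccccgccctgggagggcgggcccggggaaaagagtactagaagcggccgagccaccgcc
The response element core matched 2 times in the Lgals9 window, beginning at bases -55 and 16 relative to the start, and it was present in 3.44% of 32851 RefSeq windows of the same length. It matched in none of the windows of Lgals3, Lgals8, Lgals3bp and Havcr2. The GAS element, present in 8.3% of all windows, matched in none of the 5 windows. The kappaB consensus, present in 8.46% of all windows, matched 1 time each in the windows of Lgals3 and Lgals8. The GC box GGGCGG, present in 35.7% of all windows, matched 2 times in the Lgals3 window and in none of the other 4. A match describes letters and is not a binding site.

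Levels are given as CPM, meaning exonic read equivalents per 1e+06 after TMM scaling of the library total, and each log2 fold change is a difference of mean log2(CPM + 1). Total exonic read equivalents ranged from 23554320 to 40116467 per library. Differences were tested in limma over 13728 genes, with Benjamini-Hochberg adjustment over all of them and a threshold of 0.05. Untreated 7 stood apart from untreated 8 and 9: leaving it out raised the number of genes called between isotype antibody and untreated cells from 1 to 2297. The defining macrophage markers were present in every library. The 8 listed summed to 12969 to 14747 CPM with the PD-L1 antibody, 8047 to 8862 with isotype antibody and 8156 to 9864 in untreated cells. They did not move together. With the PD-L1 antibody 4 were higher and 1 lower against isotype antibody, and 4 were higher and 2 lower against untreated cells. That made 62.5 and 75% called, where 36.4 and 42.5% of all genes were. Scaling by library totals in place of TMM moved the median of all genes from -0.01 to -0.16 in the comparison of the antibodies, and the split of called genes from 2502 higher and 2500 lower to 1565 higher and 4148 lower. Against untreated cells the split went from 3018 higher and 2812 lower to 1939 higher and 4089 lower. With upper-quartile scaling the splits were 2095 and 2924, and 2405 and 3427.

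In the comparison of the 2 antibodies Lgals9, Lgals3bp and Lgals8 rose and Lgals3 fell with the PD-L1 antibody, while Lgals1 and Havcr2 did not pass the test. Thus 4 of 6 members were called (3 higher, 1 lower), where 36.4% of all tested genes were called, 18.2% higher and 18.2% lower. Those 4 members had libraries that did not overlap between the groups, as did 52.1% of all genes. Those 4 were also called, in the same directions, against untreated cells, where 42.5% of all genes were called (22% higher and 20.5% lower). There 5 members, Lgals1 being the fifth, had groups that did not overlap, as did 51.3% of all genes. Both comparisons share the PD-L1 antibody libraries. Across the 6 members the median log2 fold change was 0.23 against isotype antibody and 0.41 against untreated cells, beside -0.01 over all genes in both.

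**Figure D1:**
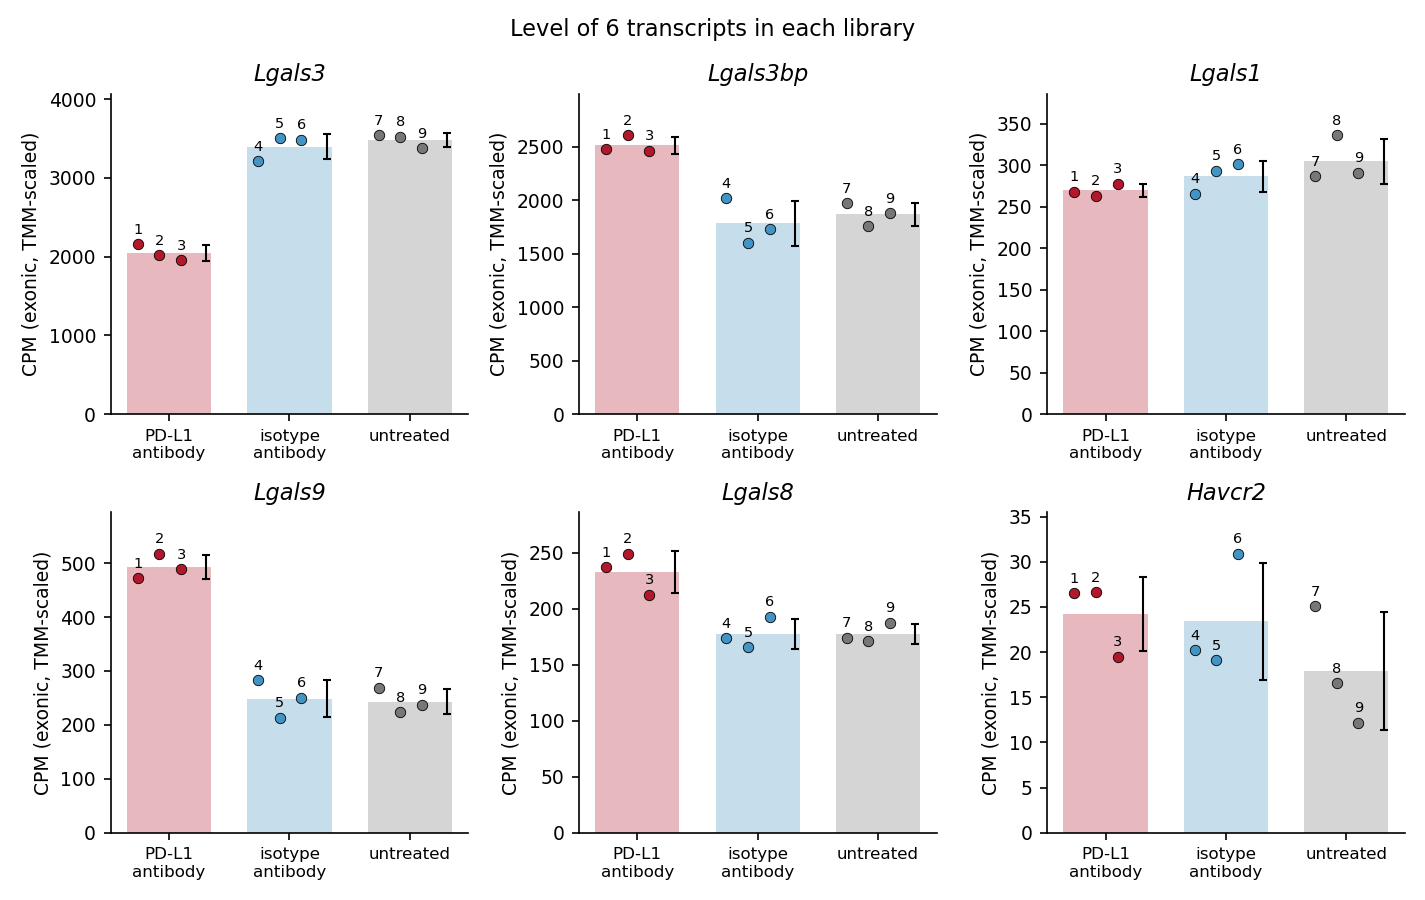
CPM (exonic, TMM-scaled; each vertical axis starts at 0) of the 6 transcripts in the 9 libraries, with points numbered by library, bars for group means and whiskers of 1 SD (n = 3). Lgals3 sits lower, and Lgals9, Lgals3bp and Lgals8 higher, in PD-L1 antibody 1 to 3 than in each of the other 6 libraries, while Havcr2 spreads from 12.2 to 30.9 CPM with overlapping groups.

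Galectin-9 changed most. Lgals9 stood at 472, 517 and 489 CPM in PD-L1 antibody 1, 2 and 3, at 283, 213 and 250 CPM in isotype antibody 4, 5 and 6, and at 269, 224 and 237 CPM in untreated 7, 8 and 9. All PD-L1 antibody libraries lay above every other library. The mean was 493 ± 22.7 against 249 ± 34.7 CPM with the isotype antibody (SD, n = 3), 1.98 times as high (log2 fold change 0.99, SE 0.11, limma adjusted p = 4.3e-05). Against untreated cells (243 ± 23.3 CPM) it was 1.02 (SE 0.11, limma adjusted p = 3.24e-05). The 3 genes whose levels ran most alike over the 9 libraries were Isg15 (Pearson r = 0.996), which encodes an interferon-induced ubiquitin-like protein, Cflar (0.995), an inhibitor of caspase-8 activation, and Ifit1 (0.995), an interferon-induced RNA-binding protein. Isg15 averaged 647 CPM in the PD-L1 antibody group, 173 CPM in the isotype antibody group and 181 CPM in untreated cells. Over 9 libraries that fall into 3 groups, each r is given as a description among 9549 genes compared.

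The linker of galectin-9 is made in several lengths by splicing, and the tables list a longer transcript with, and a shorter one without, a coding exon of 93 bases (chr11:78969714-78969806, minus strand, GRCm38). It is shown because its read depth was a small share of that of the transcript.
Lgals9 linker exon: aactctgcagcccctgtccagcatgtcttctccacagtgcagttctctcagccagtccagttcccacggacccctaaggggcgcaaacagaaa
Since the 2 transcripts differ only by this exon, its read depth follows from the coverage of both. It was 35.9, 13.7 and 36.8 reads per base in PD-L1 antibody 1 to 3, 20.9, 5.33 and 16.9 in isotype antibody 4 to 6, and 7.62, 9.43 and 10.9 in untreated 7 to 9, against 564 to 1695 over the shorter transcript. The exon thus had 2.13 ± 0.959% of the transcript's depth in the PD-L1 antibody group, 1.70 ± 0.702% in the isotype antibody group and 1.23 ± 0.164% in untreated cells (SD, n = 3). The groups overlapped (exact permutation test, two-sided, p = 0.5 and 0.2 against isotype antibody and untreated cells, where 0.1 is the smallest that 3 against 3 allow).

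Lgals3bp, the binding partner of galectin-3, rose as well. It stood at 2475, 2606 and 2463 CPM in PD-L1 antibody 1, 2 and 3, 2017, 1603 and 1732 CPM in isotype antibody 4, 5 and 6, and 1974, 1759 and 1879 CPM in untreated 7, 8 and 9. The PD-L1 antibody libraries were again the highest, by a narrower margin. The mean of 2515 ± 79.3 CPM was 1.41 times that with isotype antibody (1784 ± 212 CPM; log2 fold change 0.50, SE 0.12, limma adjusted p = 0.00603). Against untreated cells (1871 ± 108 CPM) the log2 fold change was 0.43 (SE 0.12, limma adjusted p = 0.0123). That call was lost with scaling by library totals (0.28, limma adjusted p = 0.0771), without a filter on low values (0.41, limma adjusted p = 0.0604) and without untreated 8 (0.38, limma adjusted p = 0.0587). The genes most like it were Gbp10 (r = 0.991), an interferon-induced guanylate-binding protein, Psme1 (0.987), a proteasome activator subunit, and Lipg (0.985), endothelial lipase.

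By the level of the whole transcript, galectin-8 rose by the least of the 3. Lgals8 stood at 237, 249 and 213 CPM in PD-L1 antibody 1, 2 and 3, 174, 166 and 193 CPM in isotype antibody 4, 5 and 6, and 174, 171 and 188 CPM in untreated 7, 8 and 9. The groups did not overlap, although PD-L1 antibody 3 and isotype antibody 6 lay close. The mean was 233 ± 18.7 against 178 ± 13.8 CPM, 1.31 times as high (log2 fold change 0.39, SE 0.09, limma adjusted p = 0.00495), and against untreated cells (178 ± 8.97 CPM) the log2 fold change was 0.39 (SE 0.09, limma adjusted p = 0.00451). With scaling by library totals the values were 0.21 and 0.24, and neither passed (limma adjusted p = 0.0822 and 0.0533). The genes most like it over the 9 libraries were Psmd6 (r = 0.991), a proteasome subunit, Tmco3 (0.987) and Ifrd1 (0.979).

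The depth of single Lgals8 exons was compared in the same way. A stretch of 186 bases that the longer first exon adds had 37.9 ± 5.84, 30.2 ± 5.76 and 34.3 ± 3.61% of the transcript's depth in the 3 groups, which overlapped (exact permutation test, two-sided, p = 0.2 and 0.5 for the PD-L1 antibody against isotype antibody and untreated cells). A coding exon of 89 bases (chromosome 13, 12456344 to 12456432), which 1 of the listed transcripts lacks, had a depth of at least 85.5, 91.2 and 81.3% of the full transcript's mean in PD-L1 antibody 1 to 3, 75.4, 77.1 and 76.7% in isotype antibody 4 to 6, and 67.6, 59.7 and 57.9% in untreated 7 to 9. The 3 groups did not overlap (exact permutation test, two-sided, p = 0.1 in each comparison, the smallest that 3 against 3 allow), with means of 86 ± 4.96, 76.4 ± 0.911 and 61.8 ± 5.16%. These are lower bounds because 13 bases at the 3′ end differ between the transcripts. Counting these at 20 reads, a depth that at most 1 of them reached, in PD-L1 antibody 2, gave 82.4 to 92.1%, 76.4 to 78.4% and 58.7 to 68.9%. The neighbouring exon of 143 bases (12459174 to 12459316), which another listed transcript lacks, stood at 118 to 123%, 107 to 121% and 96.6 to 108%, and only the PD-L1 antibody and untreated groups did not overlap. A further listed transcript starts at base 12459316, so reads of the 143-base exon can also come from a transcript that begins there. Relative to that exon the 89-base exon had 71.7 ± 4.65, 67.1 ± 4.27 and 60.3 ± 2.4% (SD, n = 3), with overlap between the antibodies. Scaled to library size, the depth of the 143-base exon, far from the overlap with Heatr1, was 1.38 times as high with the PD-L1 antibody as with the isotype antibody and 1.54 times as high as in untreated cells, and that of the 89-base exon 1.47 and 1.83 times.

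**Figure D2:**
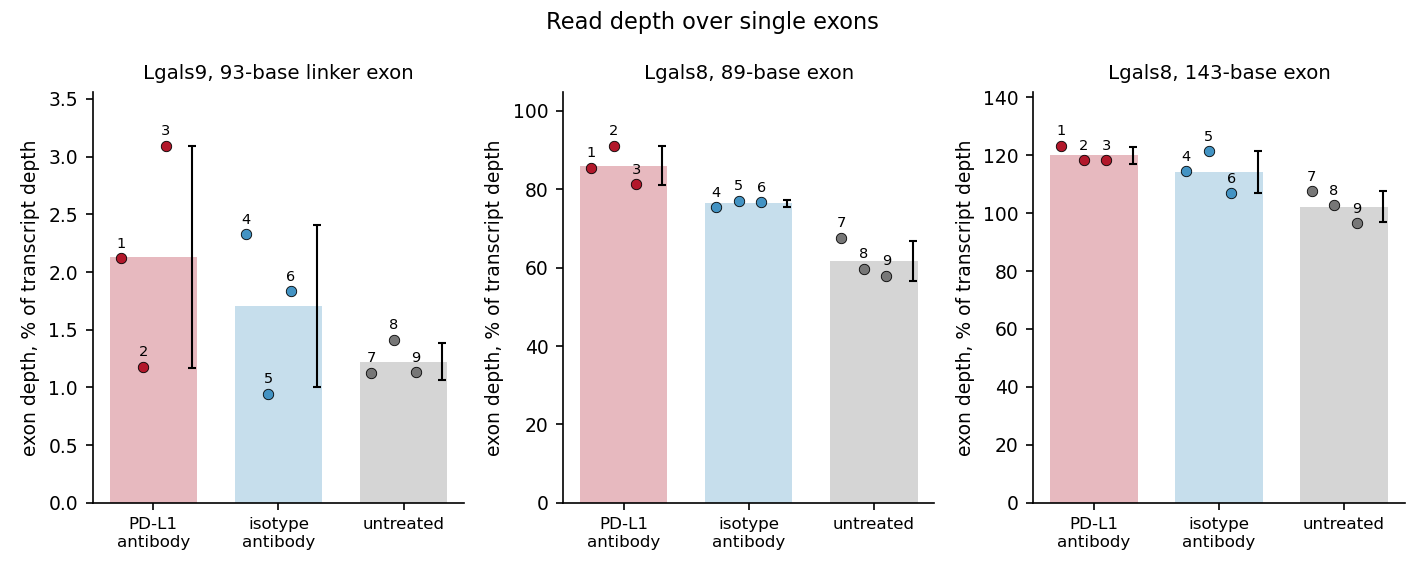
Read depth over an exon as a percent of the mean depth of its transcript (axes start at 0), for the 93-base linker exon of Lgals9 and for the 89-base and 143-base exons of Lgals8 (lower bounds), with points numbered by library, bars for group means and whiskers of 1 SD (n = 3). The Lgals9 exon stays at or under 3.1% in all 9 libraries, and the 89-base Lgals8 exon runs from 57.9 to 67.6% in untreated cells to 81.3 to 91.2% with the PD-L1 antibody.

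Galectin-3 fell. Lgals3 stood at 2159, 2019 and 1958 CPM in PD-L1 antibody 1, 2 and 3, 3213, 3501 and 3483 CPM in isotype antibody 4, 5 and 6, and 3541, 3525 and 3381 CPM in untreated 7, 8 and 9. Every PD-L1 antibody library lay below every other library by more than 1000 CPM. The mean of 2045 ± 103 CPM was 0.602 of that with isotype antibody (3399 ± 161 CPM; log2 fold change -0.73, SE 0.11, limma adjusted p = 0.000422) and 0.587 of that in untreated cells (3482 ± 88.1 CPM; -0.77, SE 0.11, limma adjusted p = 0.00027). The genes most like it were Aldh2 (r = 0.996), mitochondrial aldehyde dehydrogenase, Pld3 (0.995), a lysosomal nuclease, and Pmm1 (0.994), a phosphomannomutase. A stretch of 27 bases that the longer first exon of Lgals3 adds had 79.1 ± 3.54, 78.3 ± 8.21 and 80.5 ± 0.451% of the transcript's depth in the 3 groups, a difference of 0.822 percentage points between the antibodies (exact permutation test, two-sided, p = 1).

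Galectin-1 differed little. Lgals1 stood at 268, 263 and 277 CPM in PD-L1 antibody 1, 2 and 3, 266, 293 and 301 CPM in isotype antibody 4, 5 and 6, and 286, 336 and 291 CPM in untreated 7, 8 and 9. The antibody groups overlapped, and the PD-L1 antibody libraries lay just below the untreated ones. The log2 fold change was -0.09 against isotype antibody (95% interval -0.28 to 0.10, limma adjusted p = 0.465) and -0.17 against untreated cells (-0.36 to 0.02, limma adjusted p = 0.13). With scaling by library totals both passed (-0.26 and -0.32, limma adjusted p = 0.028 and 0.0103), and with upper-quartile scaling the latter did (-0.25, limma adjusted p = 0.0347). The genes most like it were Lonrf1 (r = 0.974), Desi1 (0.915) and Foxp3 (0.912). Foxp3 was at 14.2 to 23.3 CPM over the 9 libraries, and which cells these reads came from was not tested.

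TIM-3 RNA was scarce and uneven. Havcr2 stood at 26.5, 26.6 and 19.5 CPM in PD-L1 antibody 1, 2 and 3, 20.2, 19.1 and 30.9 CPM in isotype antibody 4, 5 and 6, and 25.1, 16.5 and 12.2 CPM in untreated 7, 8 and 9. The groups overlapped in all comparisons, and isotype antibody 6 was the highest of all. The log2 fold change was 0.07 against isotype antibody (95% interval -0.47 to 0.60, limma adjusted p = 0.861) and 0.46 against untreated cells (-0.08 to 0.99, limma adjusted p = 0.153). Without untreated 7 the latter became 0.71 (limma adjusted p = 0.0127), and isotype antibody against untreated cells went from 0.39 (limma adjusted p = 0.504) to 0.65 (limma adjusted p = 0.0495). Over the 9 libraries the genes most like Havcr2 were Cd276 (r = 0.951), which encodes the B7 family protein B7-H3, Stau2 (0.948) and Pigl (0.947).

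Other cell types that can carry TIM-3 were looked for by their markers. Of 14 T and NK cell markers 9 were tested, and 1 was not listed in any library. None rose, and 2 fell against isotype antibody and 4 against untreated cells (22.2 and 44.4%, beside 18.2 and 20.5% of all genes). Their sum was 4.43 to 8.88 CPM in the PD-L1 antibody group, 7.39 to 17.5 CPM in the isotype antibody group and 15.3 to 28.7 CPM in untreated cells, and Cd3e, which defines T cells, was at 0 to 0.823 CPM in all libraries. Of 10 dendritic cell markers 1 rose and 5 fell against isotype antibody, and 2 rose and 6 fell against untreated cells. Called were 60 and 80% of them, where 36.4 and 42.5% of all genes were. The sum of these markers ran from 429 to 490, 364 to 576 and 310 to 563 CPM in the 3 groups, most of it Ccr7. The sum was 563 CPM in untreated 7 and 324 and 310 CPM in untreated 8 and 9, and it was 364 CPM, the lowest of its group, in isotype antibody 6, where Havcr2 was highest. None of 6 tested mast cell and basophil markers was called, with sums of 39.2 to 71.5, 41.4 to 87.8 and 49.6 to 66.6 CPM. The part of these cells in the Havcr2 values was not tested.

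Neutrophil and fibroblast markers were also present. Of 9 tested neutrophil and granulocyte precursor markers 5 fell against isotype antibody and 7 against untreated cells. Those shares, 55.6 and 77.8%, stand beside 18.2 and 20.5% of all genes. The markers summed to 353 to 496, 680 to 1273 and 512 to 710 CPM in the PD-L1 antibody, isotype antibody and untreated groups. Of 7 tested fibroblast markers 3 rose against isotype antibody, and 1 rose and 1 fell against untreated cells. That made 42.9 and 28.6% called, where 36.4 and 42.5% of all genes were. The fibroblast markers summed to 33.6 to 53.4, 23.8 to 37.8 and 32.5 to 61.8 CPM. B cell markers summed to 5.0 to 6.17, 5.62 to 7.43 and 6.04 to 11 CPM, with none of 3 called. Erythroid markers summed to 2.06 to 3.8, 6.49 to 14 and 11.6 to 14.6 CPM. Of 4 tested, 2 and 3 were lower (50 and 75%, beside 18.2 and 20.5% of all genes). Their part in the galectin values was not tested.

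No member was called between isotype antibody and untreated cells, with log2 fold changes of -0.08 (Lgals1), -0.04 (Lgals3), -0.00 (Lgals8), 0.03 (Lgals9), -0.07 (Lgals3bp) and 0.39 (Havcr2). No member had an unadjusted p under 0.05 there either, and edgeR's quasi-likelihood test and DESeq2 called none. In this comparison 0.00728% of all genes were called. No member had groups that did not overlap, against 13.1% of all genes. The intervals were narrow for Lgals9 (-0.21 to 0.27) and Lgals8 (-0.19 to 0.19) and wide for Havcr2 (-0.14 to 0.92). That of Lgals8 holds for the whole transcript, including the end overlapped by Heatr1. The library-scaled depth of its 143-base exon was 10.46 to 10.88 with isotype antibody and 9.208 to 9.808 in untreated cells. For its 89-base exon it was 6.716 to 7.817 and 5.353 to 6.168. Neither exon's depth overlapped between these groups, and the cause was not tested.

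**Figure D3:**
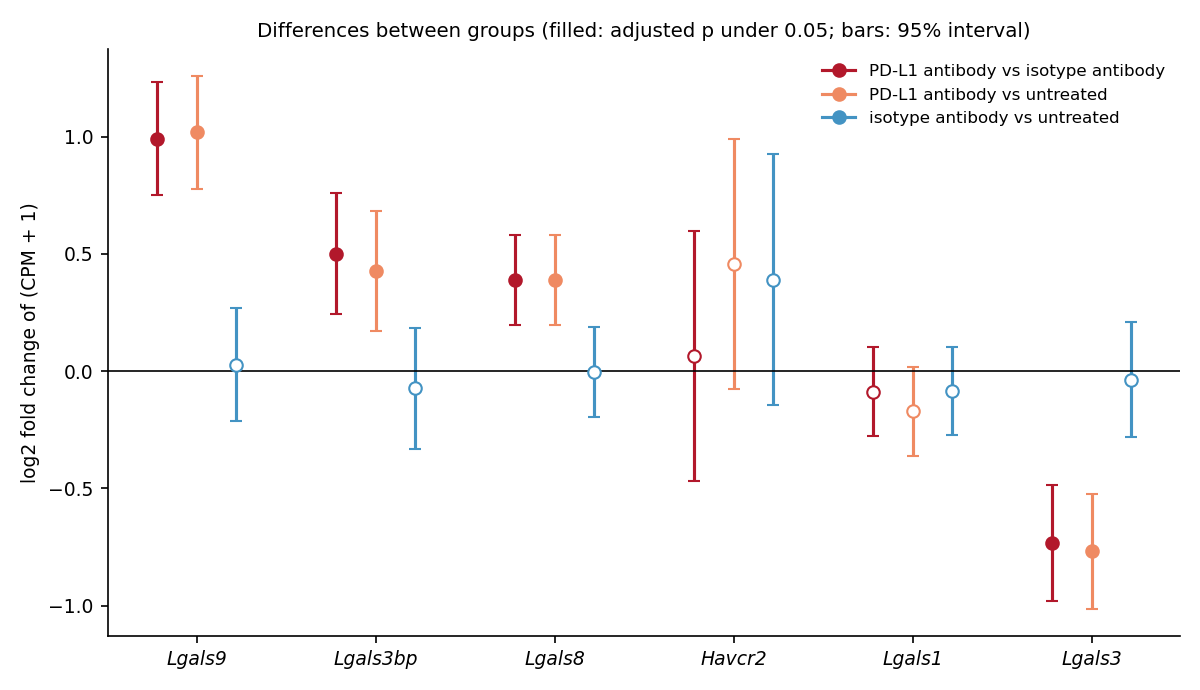
Log2 fold change of CPM + 1 (vertical axis) of each transcript in the 3 comparisons, as points with 95% intervals from limma, filled where the adjusted p is under 0.05. Lgals9, Lgals3bp and Lgals8 lie above 0 and Lgals3 below 0 in both comparisons of the PD-L1 antibody, and the intervals of isotype antibody against untreated cells include 0 for all 6.

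Set against each other per kilobase of exon, the members kept the order Lgals3, Lgals3bp, Lgals1, Lgals9, Lgals8 and Havcr2 in all 9 libraries. With the PD-L1 antibody the levels were 1455 ± 73.2, 1160 ± 36.6, 337 ± 9.16, 311 ± 14.3, 78.2 ± 6.27 and 8.88 ± 1.5 CPM per kb, and in untreated cells 2477, 863, 380, 153, 59.6 and 6.58 CPM per kb. Lgals1 and Lgals9 were neighbours that could not be ordered with the PD-L1 antibody: the ratio of their per-base levels was 1.01 to 1.13, and 0.95 to 1.06 when the length of the shorter Lgals9 transcript was used. In the other 6 libraries Lgals1 was 1.86 to 2.98 times as high as Lgals9.

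Ratios within a library do not depend on the scaling. Lgals3 was 4.40 to 5.16 times as high as Lgals9 per kilobase in the PD-L1 antibody group, 12.8 to 18.5 times in the isotype antibody group and 14.8 to 17.8 times in untreated cells. Against its binding partner Lgals3bp, Lgals3 was 1.19 to 1.34 times as high in the PD-L1 antibody group, 2.46 to 3.37 times in the isotype antibody group and 2.77 to 3.09 times in untreated cells. Neither ratio overlapped between the PD-L1 antibody and the other groups. Of the summed per-kilobase level of the 4 galectins, Lgals3 made up 66.7 ± 1.42% in the PD-L1 antibody group, 80.8 ± 0.851% in the isotype antibody group and 80.7 ± 0.447% in untreated cells, and Lgals9 14.3 ± 0.908, 5.26 ± 0.923 and 5.0 ± 0.477% (SD, n = 3).

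**Figure D4:**
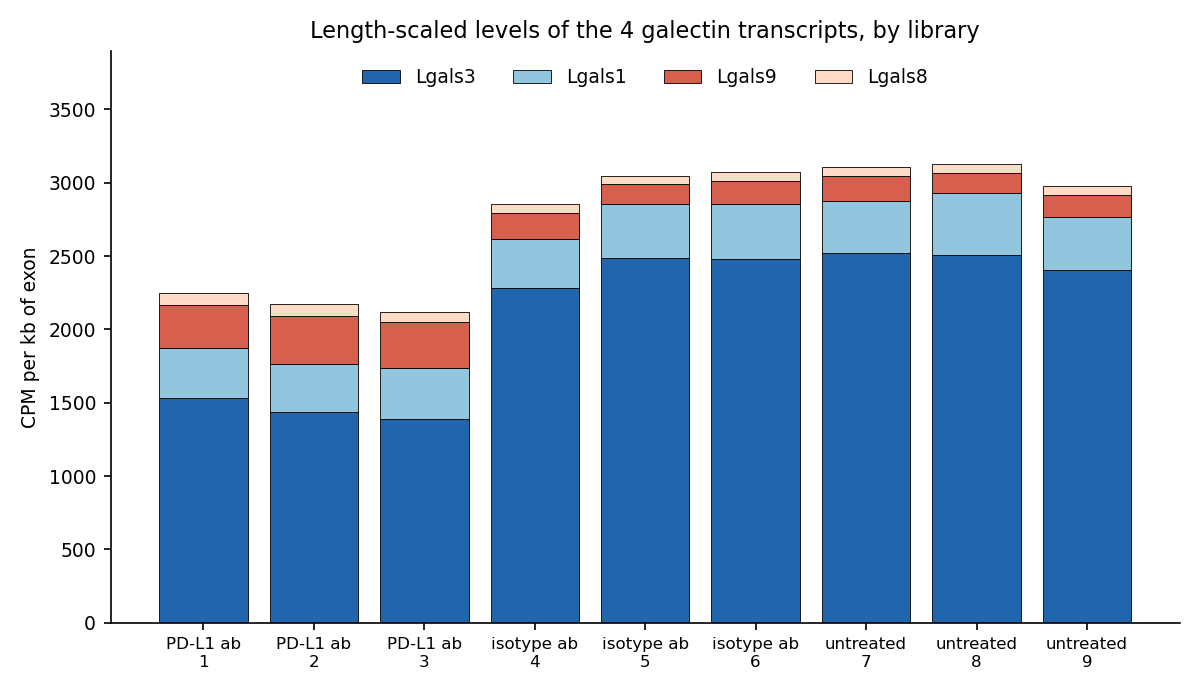
Stacked CPM per kb of exon (vertical axis from 0) of Lgals3, Lgals1, Lgals9 and Lgals8 in each library. The stacks reach 2119 to 2247 CPM per kb with the PD-L1 antibody and 2854 to 3125 CPM per kb in the other 6 libraries, with a smaller Lgals3 and a larger Lgals9 segment in the former.

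The remaining galectins and TIM genes were close to silent. Lgals2, Lgals7, Lgals12 and Grifin did not pass the filter on low values and were at or under 0.111 CPM in every library. Lgals4 and Lgals6, near-identical neighbours that can share reads, were at 0.271 to 0.858 and 0.233 to 0.679 CPM and were not called. Lgalsl, which encodes a galectin-like protein, went from 2.57 ± 0.415 CPM with isotype antibody to 1.20 ± 0.58 CPM with the PD-L1 antibody (log2 fold change -0.72, limma adjusted p = 0.0266). It no longer passed without PD-L1 antibody 1 or 3, without isotype antibody 4 or 5, without a filter on low values, or in edgeR on the deposited counts. Against untreated cells (2.28 ± 0.876 CPM) Lgalsl did not pass (-0.57, limma adjusted p = 0.0595). Of the other TIM genes, Timd4, the phosphatidylserine receptor TIM-4 of resident macrophages, stood at 1.13, 1.90 and 1.39 CPM in PD-L1 antibody 1 to 3, 0.224, 0 and 0 CPM in isotype antibody 4 to 6 and 0.16, 0.0204 and 0.0555 CPM in untreated 7 to 9 (log2 fold change 1.20, limma adjusted p = 0.000119). Timd4 passed the filter on low values only through the PD-L1 antibody libraries, so its p-value is no independent support for a rise. It also did not pass in edgeR on the deposited counts. For genes as low as Lgalsl and Timd4, the 1 added to CPM makes log2 fold changes smaller than those of the plain CPM. Havcr1 was at 0.148 to 0.782 CPM and not called, and Timd2 was under the filter.

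Reported partners of TIM-3 moved in both directions. Of 11 tested genes 3 rose and 2 fell against isotype antibody, and 3 rose and 1 fell against untreated cells, with median log2 fold changes of 0.04 and -0.02. The shares called, 45.5 and 36.4%, were near those of all genes, 36.4 and 42.5%. Against untreated cells the falls numbered 0 in edgeR on the deposited counts or without PD-L1 antibody 1, 2 or 3, and 2 with scaling by library totals. Lyn, a Src family kinase, rose (415 ± 21.7 against 265 ± 14.8 CPM, log2 fold change 0.65). So did Adam17, a protease that sheds TIM-3 from the cell surface (330 ± 6.14 against 243 ± 9.64 CPM, 0.44). Ceacam1, an adhesion molecule described as a TIM-3 ligand, fell from 30.8 ± 2.53 to 18.5 ± 2.01 CPM against isotype antibody (-0.71, limma adjusted p = 0.0017) and was at 21 ± 4.02 CPM in untreated cells (limma adjusted p = 0.341).

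Among 16 tested genes of proteins listed as bound by galectins, not all of them mainly at the surface, 5 rose and 2 fell in each comparison of the PD-L1 antibody. That made 43.8% called, where 36.4 and 42.5% of all genes were. The medians were 0.04 and 0.14. In both comparisons 4 rose and 2 fell. Itgam, the integrin alpha M chain, went from 918 ± 63.2 to 2044 ± 136 CPM, Slc3a2, the CD98 heavy chain bound by galectin-3, from 510 ± 26 to 848 ± 30.4 CPM, and P4hb, a protein disulfide isomerase bound by galectin-9, from 361 ± 9.88 to 603 ± 42.1 CPM. Nrp1, the neuropilin-1 receptor, fell from 323 ± 19 to 122 ± 11.4 CPM. Against untreated cells the falls numbered 4 with scaling by library totals or without untreated 7, and 1 without a filter on low values or without PD-L1 antibody 1 or 2.

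Genes listed for the response to damaged membranes, in which galectins take part, moved both ways. Calcoco2 was listed too but did not pass the filter on low values. Of 18 tested, 5 rose and 6 fell in each comparison of the PD-L1 antibody (medians -0.10 and -0.11), 61.1% called where 36.4 and 42.5% of all genes were. In both comparisons 4 rose and 6 fell, and 3 rose and 10 fell against isotype antibody when scaled by library totals. Trim16, a ubiquitin ligase that works with galectin-3 at damaged lysosomes, went from 21.1 ± 4.97 to 5.37 ± 0.507 CPM (log2 fold change -1.77), Tfeb, a transcription factor of lysosomal genes, from 136 ± 22 to 66.1 ± 6.4 CPM, and Calcoco1, an autophagy receptor, from 56.8 ± 1.11 to 32.6 ± 1.58 CPM. Tax1bp1, also an autophagy receptor, rose from 187 ± 13.9 to 296 ± 23 CPM.

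Enzymes that build the sugars galectins bind moved both ways as well. Of 22 tested building genes 8 rose and 7 fell against isotype antibody and 7 rose and 8 fell against untreated cells (medians 0.08 and -0.02), 68.2% called in each comparison where 36.4 and 42.5% of all genes were. The rises against isotype antibody numbered 5 in edgeR on the deposited counts and 4 with scaling by library totals. Mgat4a, which adds a branch to N-glycans, went from 57.2 ± 4.87 to 103 ± 4.99 CPM. Gcnt1, which branches O-glycans, fell from 72.6 ± 2.29 to 38 ± 3.14 CPM, the mannosidase gene Man2a2 from 108 ± 15.9 to 36.5 ± 4.06 CPM and the galactosyltransferase gene B4galt4 from 9.80 ± 1.1 to 3.12 ± 0.733 CPM.

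Of 14 tested capping or trimming genes 1 rose and 6 fell against isotype antibody, and 1 rose and 8 fell against untreated cells, with medians of -0.26 and -0.36. Of all genes 18.2% fell in the former and 20.5% in the latter comparison. St6gal1, which caps terminal galactose of N-glycans with sialic acid and so hides it from several galectins, had 18.5 ± 2.13 CPM in the PD-L1 antibody group, 104 ± 8.73 CPM in the isotype antibody group and 104 ± 11.6 CPM in untreated cells (log2 fold change -2.43, SE 0.11, limma adjusted p = 5.71e-08 against isotype antibody). St8sia4, a polysialyltransferase, fell from 93.5 ± 11.5 to 64.5 ± 2.81 CPM, and St6galnac4, which sialylates O-glycans, from 42.6 ± 3.31 to 31.2 ± 2.26 CPM. The rise was that of St3gal1, which caps galactose of O-glycans, from 176 ± 17.6 to 335 ± 21.7 CPM. In these 5 lists no gene was called between isotype antibody and untreated cells in the test over all 9 libraries, and without untreated 7 there were 0 to 3 rises and 0 to 2 falls per list.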

How the data were processed

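Oligo(dT)-selected RNA of 9 samples was sequenced in paired 150-base reads, per the labels' protocols. The submitters' processing notes name Partek and STAR, while versions, the role of each and the genome build are not given in the sources used here. The deposited files list RefSeq transcripts. Of 21782 symbols found in RefSeq GRCm38.p6, 99.1% overlapped the gene of that name. The read counts the authors deposited were the same for isoforms of 1 span with different exon lengths in all 38353 such cases, and how reads were counted is not given in the sources used here, so they served only as an alternative. Average coverage, a signal per exonic base, total exon length, and the percent of bases covered at 1x, 20x and 100x are given per the file headers. The quality score per transcript, also deposited, was not used. Average coverage times exon length divided by 150 gave exonic read equivalents, and the transcript with the highest mean was taken for each symbol.

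Genes passing edgeR's filterByExpr were scaled by TMM and fitted as log2(CPM + 1) in limma (trended variance, all 9 libraries, 1 mean per group). Exon depths came from the coverage of isoform pairs. The software was R 4.3.3, limma 3.58.1, edgeR 4.0.16, DESeq2 1.42.0 and Python 3.11.15, and the procedure was tested on simulated data. Alternatives were other scalings, pseudocounts, filters, tools (edgeR's quasi-likelihood test, DESeq2), transcripts, and leaving out each library. The members, gene lists and tests were chosen with earlier results of these data known. Named genes were the members, Cd274, the other galectins and TIM genes, up to 4 genes of lowest p from each list (1 of them is not reported here), and the 3 genes with the highest r to each member among those of at least 5 CPM. Cd274, which encodes PD-L1, stood at 567 to 752 CPM with the PD-L1 antibody and 178 to 266 CPM in the other libraries. PCR reads are not independent molecules, and depth limits Havcr2, Timd4 and other low genes most.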

Additional observations from a re-analysis of the deposited data

How the results depend on the processing

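Lgals9 and Lgals3 kept their direction and call against both control groups under all 21 alternatives, with log2 fold changes of 0.81 to 1.08 and -0.91 to -0.71 against isotype antibody. Lgals3bp kept its call against isotype antibody (0.32 to 0.59). With scaling by library totals Lgals1 passed at -0.264 and -0.322 against isotype antibody and untreated cells, Lgals8 no longer passed at 0.212 and 0.237, Lgals3bp no longer passed against untreated cells at 0.277, and Havcr2 turned to -0.105 against isotype antibody. Lgals1 also passed against untreated cells with upper-quartile scaling (-0.251), and Lgals3bp did not without a filter on low values (0.408). Havcr2 was at -0.0987 against isotype antibody in edgeR on the deposited read counts. Leaving out 1 library at a time gave -0.0621 to 0.273 for Havcr2 against isotype antibody, 0.221 to 0.711 against untreated cells, where it passed without untreated 7, and 0.382 to 0.464 for Lgals3bp against untreated cells.

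Between isotype antibody and untreated cells 1 gene was called, 2 with edgeR on deposited read counts or scaling by library totals, 0 with edgeR on exonic read equivalents or only the groups compared, 13 with DESeq2, and 0 to 2297 with 1 library left out, the highest without untreated 7. At an unadjusted p under 0.05 limma gave 1745 genes. Members called were 0 to 1 with 1 library left out. Members near 0 there changed sign: Lgals3 to 0.0371 and Lgals8 to 0.0989 with edgeR on deposited read counts, Lgals8 to 0.025 with scaling by library totals and 0.00493 without a filter. With 1 library left out the ranges were -0.0581 to 0.00516 (Lgals3), -0.0626 to 0.0467 (Lgals8), -0.069 to 0.134 (Lgals9), -0.164 to 0.00172 (Lgals3bp) and 0.157 to 0.649 (Havcr2). The cause was not tested. No paired analysis was made, because the sources used here do not give which samples of different groups share an origin. Depth limits Havcr2 and the low galectin and TIM genes most.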
